A study of Mus musculus with 16 samples.

Results

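Gene-free windows were defined as fixed 100 kb windows of the mouse genome (build mm10, chromosomes 1 to 19, each starting at a multiple of 100 kb) that overlap no gene of any type in GENCODE M21 and that held at least 1 DNA break end over 16 libraries. The rule kept 3312 windows, 13.8% of the 23969 windows with ends. Another 20657 windows held both a gene and ends, and 587 gene-free windows held no end, 570 of them in the first 3 Mb of a chromosome. The rule used gene positions and the presence of an end, and no comparison between samples.

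The libraries came from AB22, a mouse cell line of malignant mesothelioma (cancer of the mesothelium, which lines the chest and abdomen). Break ends were mapped by BLISS, in which the free ends of DNA breaks are tagged with an adapter in fixed cells, copied into RNA and sequenced. Cells were transduced with a viral vector for a doxycycline-induced control hairpin (shCTRL) or a hairpin against HMGB1 (shHMGB1), a chromatin protein that bends DNA, and selected with puromycin. Both lines, held in G1 under low oxygen and treated with doxycycline, received 0, 3, 5 or 10 Gy from a caesium source, with 2 libraries in each of 8 groups. Every library thus carries a hairpin and doxycycline, and the 0 Gy libraries are the unirradiated background of both lines. The labels do not say whether a line is 1 clone or a pool of transduced cells. Break ends measure neither the Hmgb1 transcript nor the markers of a cell type, so neither the knockdown nor the cell type could be checked with them.

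Most of the mammalian genome codes for no protein, and stretches far from any gene are mostly wrapped in closed chromatin, carry little transcription and copy late in S phase. Gamma rays break DNA directly and through radicals made in water, so a break can arise in any sequence. Breaks in untreated cells are known to collect at active promoters and transcribed genes, which makes windows without genes a view of the signal away from them.

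By its title, the study is about whether nucleosomes shield DNA in living cells from radiation. Libraries held 127549 to 981944 ends on chromosomes 1 to 19, with a median of 782754. An end is 1 tagged molecule, and a position is 1 base of the genome that holds at least 1 end in a library. Position totals over libraries count a base once in each library. Libraries of shCTRL held fewer ends (lowest 127549, median 491382, highest 901617) than those of shHMGB1 (673238, 829140 and 981944), so shares were also computed at equal library size. Precision follows the counts: the smallest library, shCTRL 3 Gy replicate 2, gave 2.50 ends per gene-free window, and the largest, shHMGB1 10 Gy replicate 1, gave 24.4.

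Promoters annotated only by RefSeq show what the ends in these windows look like base by base. RefSeq (GRCm38.p6, the assembly of mm10) places 887 genes of its own in 756 of the 3312 windows, 700 of them long noncoding RNAs and 50 protein-coding. Its promoters there, the 250 bases before and 50 after a start, numbered 518, and 297 of them (57.3%) held no end in any library. Both promoters printed here are of long noncoding RNAs and are shown because they carry the most ends (Gm41000) and the most separate end positions (Gm46835) among the 4 with the most ends. Capitals mark the bases at which ends lay in any library, and each runs 5′ to 3′ on the strand of the gene.
Gm41000, chr13:72537515-72537814, minus strand: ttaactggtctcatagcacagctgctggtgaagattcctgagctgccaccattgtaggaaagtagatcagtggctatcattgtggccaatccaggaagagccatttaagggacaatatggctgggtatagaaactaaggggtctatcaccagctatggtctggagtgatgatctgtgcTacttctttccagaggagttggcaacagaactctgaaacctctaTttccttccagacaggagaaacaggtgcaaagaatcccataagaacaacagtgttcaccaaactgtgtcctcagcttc
Gm46835, chr3:48546166-48546465, plus strand: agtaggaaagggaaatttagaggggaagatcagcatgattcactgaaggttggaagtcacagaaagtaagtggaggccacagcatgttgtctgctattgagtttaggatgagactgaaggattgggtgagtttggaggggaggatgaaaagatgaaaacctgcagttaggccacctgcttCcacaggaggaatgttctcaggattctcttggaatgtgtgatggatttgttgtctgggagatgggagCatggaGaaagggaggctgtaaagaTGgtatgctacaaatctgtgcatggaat

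The Gm41000 promoter held 9 ends at 2 positions, from 8 libraries, 2 of them shCTRL and 6 shHMGB1. The Gm46835 promoter held 6 ends at 5 positions, from 3 libraries, so its ends did not pile up at 1 base. Per kb, RefSeq promoters in gene-free windows held 2.62 ends over the 16 libraries, close to the 2.67 of the gene-free windows as a whole. Promoters in gene-holding windows held 5.66 ends per kb, against 4.92 in those windows as a whole. The 4.92 includes a few very full windows: a gene-holding window held 492 ends on average and 274 in the median. Windows with a RefSeq gene held a median of 192.5 positions and those without one 203.

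Mean ends per window were lower in gene-free windows than in windows with genes in each of the 16 libraries, and median ends were lower in 15 and equal, at 20, in shHMGB1 3 Gy replicate 2. The means include a few very full gene windows, of up to 1094654 ends. Over all libraries a gene-free window held a median of 244 ends and 201.5 positions, and a gene-holding window 274 and 224. The ratio of mean ends per window, gene-free over gene-holding, ran from 0.433 in shCTRL 3 Gy replicate 2 to 0.692 in shHMGB1 3 Gy replicate 2. Its geometric mean was 0.527 (log2 −0.92 ± 0.17, SD over 16 libraries), and the exact paired permutation test gave p = 3.05e-05, the smallest it can give. Counted in positions the ratio was 0.697 (lower in 16 of 16 libraries, exact permutation p = 3.05e-05).

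Windows whose genes are all noncoding lay much closer to the gene-free ones. There are 5142 of them, with a median of 236 ends and 194 positions, both below the gene-free medians. In means per window the gene-free set still held 0.681 times their ends (16 of 16 libraries lower, exact permutation p = 3.05e-05) and 0.931 times their positions (15 of 16 lower, exact permutation p = 6.10e-05). The median and the mean therefore order the 2 sets differently, and a few noncoding windows held very many ends, up to 376094, against at most 7728 in a gene-free window.

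Distance to the nearest gene, which ran from 5 bases to 535.866 kb with a median of 41.776 kb, went with little change in level. The median window held 197.5 positions under 50 kb from a gene (1834 windows), 204.5 at 50 to 100 kb (770), 206 at 100 to 200 kb (516), 210 at 200 to 400 kb (177) and 223 at 400 kb or more (15). Spearman's rho between distance and positions was 0.0961 over 3312 windows, a description only, since neighbouring windows share libraries and chromosomes. Ends per window at 100 kb or more over ends per window nearer to a gene gave ratios of 0.945, 1.01 and 1.05 (lowest, median and highest library). Libraries lay on both sides of 1, and the log2 ratio differed by 0.01 between lines (adjusted exact permutation p = 0.718) and by 0.03 with irradiation (adjusted exact permutation p = 0.293).

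**Figure D1:**
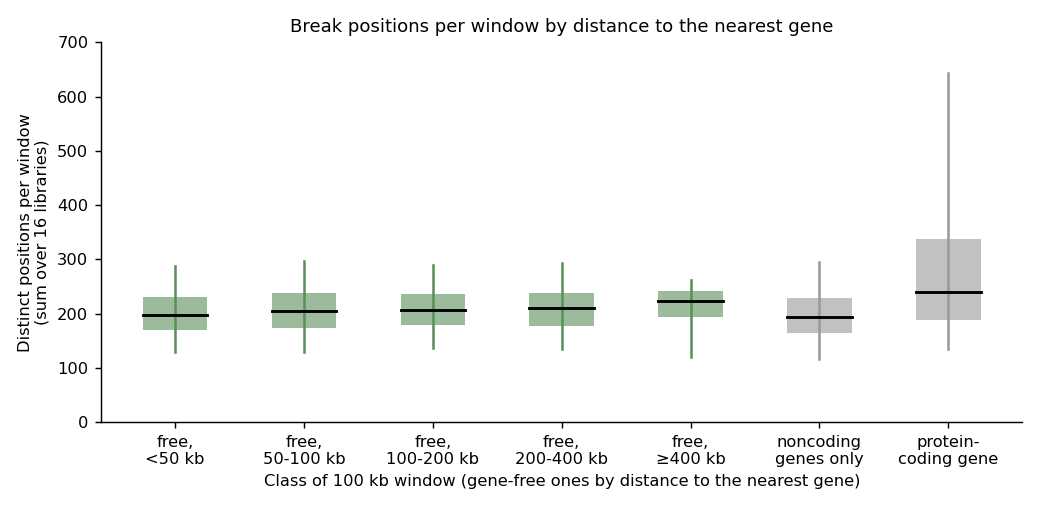
Distinct break positions per 100 kb window, summed over 16 libraries, for gene-free windows by distance to the nearest gene (green) and for windows with noncoding genes only or with a protein-coding gene (grey). Black lines are medians, boxes run from the 25th to the 75th percentile and thin lines from the 5th to the 95th; the gene-free medians lie between 197.5 and 223, close to the 194 of the noncoding windows.

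The 5 windows farthest from any gene held 120 to 296 ends. The lowest of them, on chromosome 6, held 102 positions, under the 5th percentile of gene-free windows (131). The farthest, chr1:114500001-114600000, lies 535.866 kb from the long noncoding RNA gene 9330185C12Rik and 619.189 kb from the pseudogene Gm4854. It held 265 ends at 223 positions, and its fullest base held 4 ends, all in 1 library. Its neighbour chr1:114600001-114700000 held 281 ends, chr1:145800001-145900000 held 296, chr11:13500001-13600000 held 224 and chr6:20300001-20400000 held 120. All 5 had ends in all 16 libraries, and the fullest base of each held at most 15. The first of them sits in the longest run of gene-free windows, 12 windows at chr1:114000001-115200000, where each window held 197 to 266 positions.

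Position along the genome went with larger differences than distance to genes did. Relative to the mean over gene-free windows of the same library, positions per window were 1.27 on chromosome 15 (lowest library 1.22, highest 1.33) and 1.25 on chromosome 19 (1.13 to 1.34). They were 0.785 on chromosome 5 (0.734 to 0.866), 0.806 on chromosome 13 (0.753 to 0.837) and 0.820 on chromosome 14 (0.786 to 0.864). Chromosomes 15 and 19 were the highest in each of the 16 libraries, and their ranges lie wholly above those of chromosomes 5, 13 and 14. The level of chromosome 15 was 1.28 ± 0.0386 over the shCTRL libraries and 1.27 ± 0.0196 over those of shHMGB1 (SD, n = 8 for each line), with no test run.

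Blocks of 5 Mb, a division made after the values were seen, resolved these levels further. In 268 blocks with at least 5 gene-free windows, 37 were above and 41 below the mean over gene-free windows in all 16 libraries. Chromosome 2 from 135 to 140 Mb was highest, with 320 to 393 positions in each of its 7 windows and a relative level of 1.49 to 1.88 over libraries. Chromosome 15 from 45 to 50 Mb held a median of 298 positions, but its block from 85 to 90 Mb held 133. Likewise chromosome 16 held a median of 295 at 25 to 30 Mb and 177 at 35 to 40 Mb, and chromosome 17 held 303 at 55 to 60 Mb and 126 at 90 to 95 Mb.

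Other blocks were low in every library. Chromosome 3 from 20 to 25 Mb held a median of 101 positions and 0.347 to 0.630 of the mean level over libraries, and chromosome 5 from 40 to 45 Mb held 109 and 0.335 to 0.614. Over 3264 windows with at least 100 positions, the 416 blocks accounted for 66.2% of the variance of log2 positions and the 19 chromosomes for 33.0%. A finer division takes up more variance by itself, and neither share was corrected for the number of groups. Over all 3312 windows chromosomes accounted for 15.6%. Gene-holding windows of the same blocks followed the same levels, with a Spearman's rho of 0.802 between the block medians of both kinds of window. Between the lines the rho of the block levels was 0.933. Both are descriptions over 268 blocks that share genome, libraries and base composition, and what sets the levels was not tested.

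**Figure D2:**
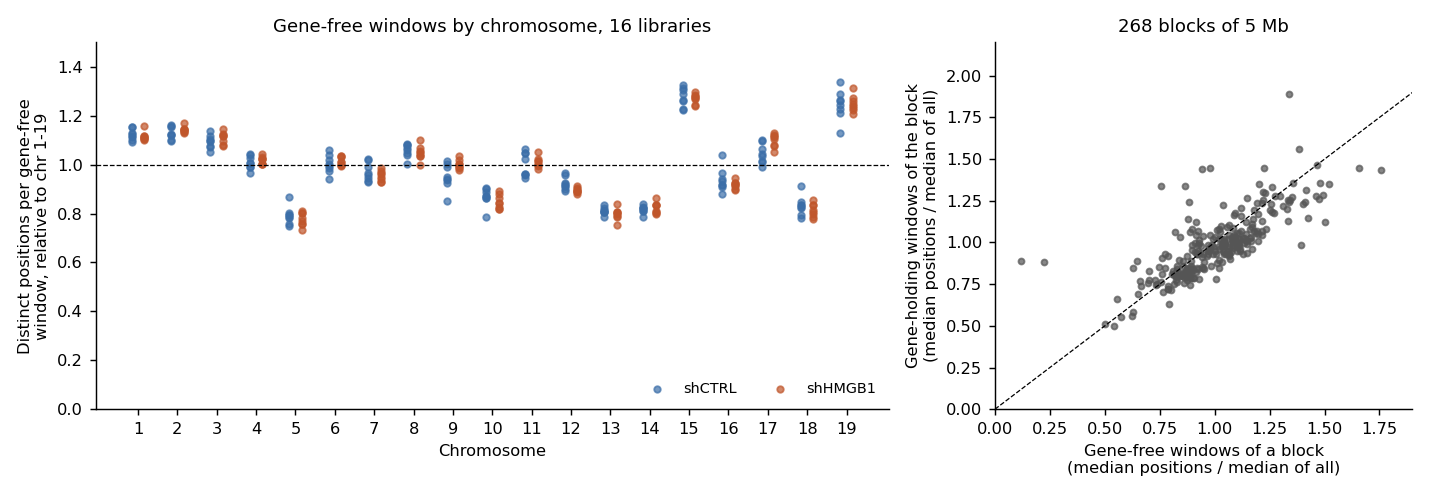
Left, distinct positions per gene-free window of each chromosome relative to the mean over chromosomes 1 to 19, 1 point per library (blue shCTRL, orange shHMGB1). Right, the median positions of gene-free windows (x) and gene-holding windows (y) in 268 blocks of 5 Mb, each over the median of all windows of its kind, with the line of equality; chromosomes 15 and 19 stand highest in every library, and the 2 points far left are blocks of chromosome 4 with median levels of 0.119 and 0.223.

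The lowest block, chromosome 4 from 85 to 90 Mb, holds a sharp gap. The gene-free windows chr4:89500001-89600000, chr4:89700001-89800000 and chr4:89800001-89900000 held 24, 6 and 5 positions over 16 libraries, where the median gene-free window held 201.5. These windows were picked after their values were seen. They end a run of 14 windows, chr4:88500001-89900000 (1.4 Mb), of which none held more than 26 positions, bounded by windows with 160 and 99. The run covers the interferon alpha cluster, Mtap (a methionine salvage enzyme, 5 ends over all libraries), Cdkn2a (the cell cycle inhibitors p16INK4a and p19ARF, 4 ends), Cdkn2b (a related inhibitor, 1 end) and Dmrta1 (a DM domain factor, 0 ends). Deletion of this locus is a well known lesion of malignant mesothelioma, but DNA copies were not measured here and the reason for the gap was not tested.

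The gap was there in every library. A library held 2 to 21 ends in the whole run, with a median of 13. As CPM, counts per 1000000 ends of the library on chromosomes 1 to 19, this was 14.3 ± 5.46 for shCTRL and 18.7 ± 6.76 for shHMGB1 (SD, n = 8 for each line), and the ranges overlap. The genome had 17 runs of at least 5 windows under 30 positions after the first 3 Mb, and this one held the most gene-free windows with ends, 3.

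The windows with the fewest positions lay elsewhere. A window at the start of chromosome 10, chr10:3000001-3100000, held 2 ends at 1 position, and chr18:90600001-90700000 held 3 ends at 2. The position on chromosome 10 was the last base of its window, and the window on chromosome 18 had no gene beyond it. Unknown bases in these windows were not counted. On chromosome 4, chr4:121900001-122000000 and chr4:122300001-122400000 held 3 positions each, next to the pseudogenes Gm12892 and Gm12895. Just inside the limit of 1 end, 9 windows held 2 to 9 ends and 21 held 10 to 99; outside it lie the 587 with none. In contrast, 2696 windows (81.4%) had an end in all 16 libraries.

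Most ends in gene-free windows were scattered, and a small number of bases held piles. Of 661982 different positions, 557041 (84.1%) held a single end in a single library. The 626 positions with ends in at least 8 libraries, 0.0946% of positions, held 8.89% of the ends. In gene-holding windows 22264 such positions held 33.6%. The 108 positions with ends in all 16 libraries held 7.47% of the ends of gene-free windows, in 86 windows.

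Each of the 6 windows with the most ends owed them to 1 such pile. The fullest was chr2:145000001-145100000, between the pseudogene Gm11746 (68.322 kb away) and Slc24a3 (67.753 kb), which encodes a sodium, potassium and calcium exchanger. It held 7728 ends, 95.8% of them within 5 bases of position 145019861. Near that base shCTRL libraries held 168, 331 and 451 ends (lowest, median and highest) and shHMGB1 libraries 294, 652.5 and 734. The lines overlap, and scaled to library size they held 692 ± 278 and 723 ± 171 CPM (SD, n = 8 each).

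The other 5 had the same form. On chromosome 4, chr4:24300001-24400000 between Gm11892 and Gm11891 held 6035 ends, 95.8% within 5 bases of 24340464. On chromosome 2, chr2:47700001-47800000 between the microRNA gene Gm25959 and Gm13481 held 5271 ends, 94.7% of them near 47750706. Next came chr14:110600001-110700000 (5071 ends, 95.6% near 110661972), 2.278 kb from the small nuclear RNA gene Gm25670, and chr15:67700001-67800000 (4862 ends, 94.4% near 67705872). Last was chr6:98400001-98500000 (3977 ends, 81.6% near 98443038), 7.725 kb from Gm44196. Each top position had ends in 16 of 16 libraries, and over 250 bases from it all 6 windows held 220 to 732 ends, where the median gene-free window held 244 in all. No genome sequence outside promoters was used here, so the bases at these positions are not shown.

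Scaled to library size, the smallest library was the highest at all 6 piles. At chr2:145019861 shCTRL 3 Gy replicate 2 held 1317 CPM, against 385 to 930 in the other 15 libraries, and at chr4:24340464 it held 996 against 336 to 742. None of the 6 windows passed the test between lines (log2 −0.17 to 0.01, edgeR adjusted p 0.883 to 1.00) or with irradiation (−0.36 to −0.17, edgeR adjusted p 0.731 to 0.903). Depth moved with these piles, and its part was not tested.

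**Figure D3:**
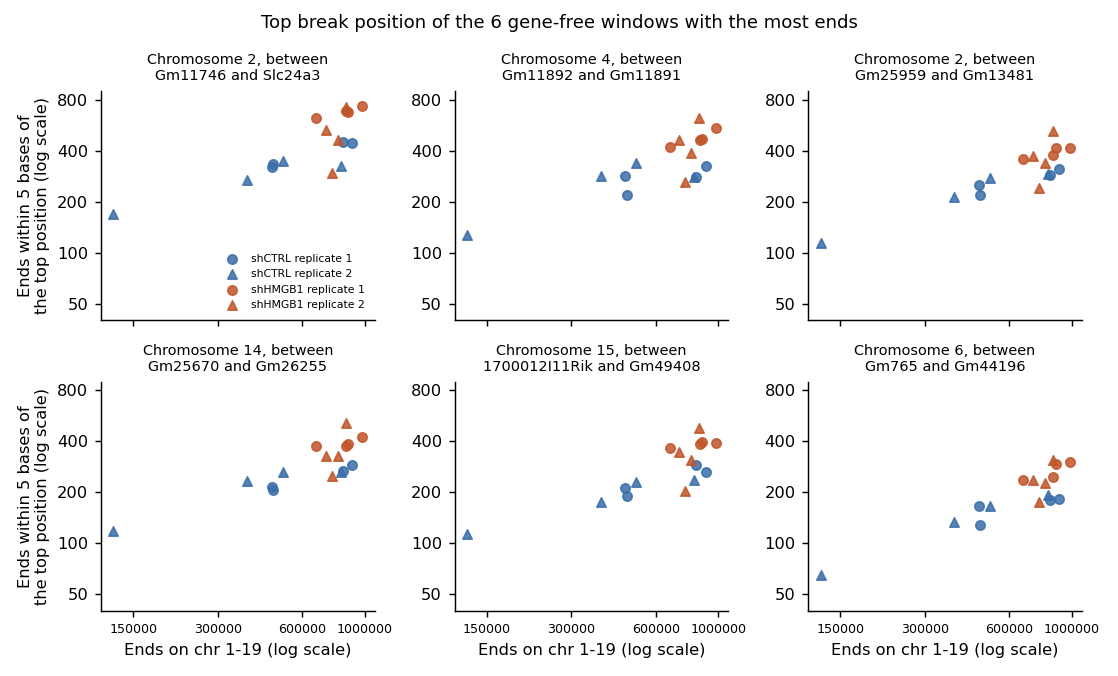
Ends within 5 bases of the top position (y, log scale) against the ends of the library on chromosomes 1 to 19 (x, log scale) for the 6 gene-free windows with the most ends, 1 point per library. The piles grow with library size less than in proportion: from 127549 to 981944 library ends, the pile on chromosome 2 near Slc24a3 goes from 168 to 734.

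Other windows were rich in positions instead. The most positions, 2476, lay in chr8:82600001-82700000, between the pseudogenes Gm8167 (21.276 kb) and Gm9655 (47.615 kb), with 52 to 260 in a library and only 7.39% of its 3788 ends within 5 bases of its top position. Its level was 403 ± 152 CPM over shCTRL libraries and 318 ± 87.2 CPM over shHMGB1 libraries (SD, n = 8 each; log2 −0.43 ± 0.21 SE, edgeR adjusted p = 0.537). After it came chr1:122300001-122400000 (755 positions), chr6:98400001-98500000 (646), chr1:102600001-102700000 (630), chr18:68600001-68700000 (582) and chr3:56500001-56600000 (500). In 4 of these 5 windows the ends crowded around the top base: 78.1%, 82.3%, 77.3% and 70.6% lay within 250 bases of it on chromosomes 1 (both), 18 and 3. Apart from the chr6 pile, these crowds spread over many bases, since at most 44.2% of ends lay within 5.

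Gene-free windows held a larger share of the ends in shHMGB1 than in shCTRL. The shCTRL libraries held 6.49%, 7.33% and 7.96% of their ends there (lowest, median and highest) and the shHMGB1 libraries 7.39%, 8.17% and 9.99%, so the ranges overlap. At 0 Gy the shCTRL replicates held 7.37% and 6.85% and the shHMGB1 replicates 7.39% and 7.72%. At 3 Gy they held 7.96% and 6.49% against 8.03% and 9.99%.

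At 5 Gy the values were 7.28% and 6.85% against 8.68% and 8.79%, and at 10 Gy 7.79% and 7.77% against 8.22% and 8.11%. Both shHMGB1 libraries were above both shCTRL libraries at each of the 4 doses. The means were 8.37 ± 0.801% and 7.30 ± 0.529% (SD, n = 8 each), and the share rose by 1.07 percentage points (two-sided exact permutation p = 0.00154, the smallest this design can give; 0.0123 adjusted over 8 tests). A larger intergenic share in shHMGB1 was already known from these files, so this is no independent evidence of it.

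The call was lost under several alternatives, and the size of the difference was not alike in the 2 replicate numbers. Within replicate 1 it was 0.479 points and within replicate 2 it was 1.66, and whether a number marks a shared culture or preparation is not given in the labels. If it does, a line holds 2 independent units, for which the smallest exact p is 0.333. Without shHMGB1 3 Gy replicate 2 the difference was 0.826 points (adjusted exact permutation p = 0.129), and without shCTRL 3 Gy replicate 2 it was 0.887 (adjusted exact permutation p = 0.0670). With at most 3 ends counted at a position it was 1.34 points and without positions recurring in at least 8 libraries 1.21 points, and neither passed (adjusted exact permutation p = 0.0864 and 0.111). At equal library size, 127549 ends each, it was 1.09 points and passed (adjusted exact permutation p = 0.0247).

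Counted in positions the share was 9.45 ± 1.03% for shCTRL libraries and 10.8 ± 1.08% for shHMGB1 libraries (SD, n = 8 each), a rise of 1.33 points (adjusted exact permutation p = 0.0485). Here the within-number values were 0.215 points for replicate 1 and 2.44 for replicate 2, higher in 6 of 8 pairs of the same dose and number. At equal library size the difference was 1.19 points and no longer passed (adjusted exact permutation p = 0.0679), and the same held with 13 of 16 single libraries left out. In shCTRL the positions share was higher in replicate 1 than in replicate 2 at each dose, at 10.2 ± 0.456% against 8.65 ± 0.744% (SD, n = 4 each), a pattern noticed in the values and not tested.

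**Figure D4:**
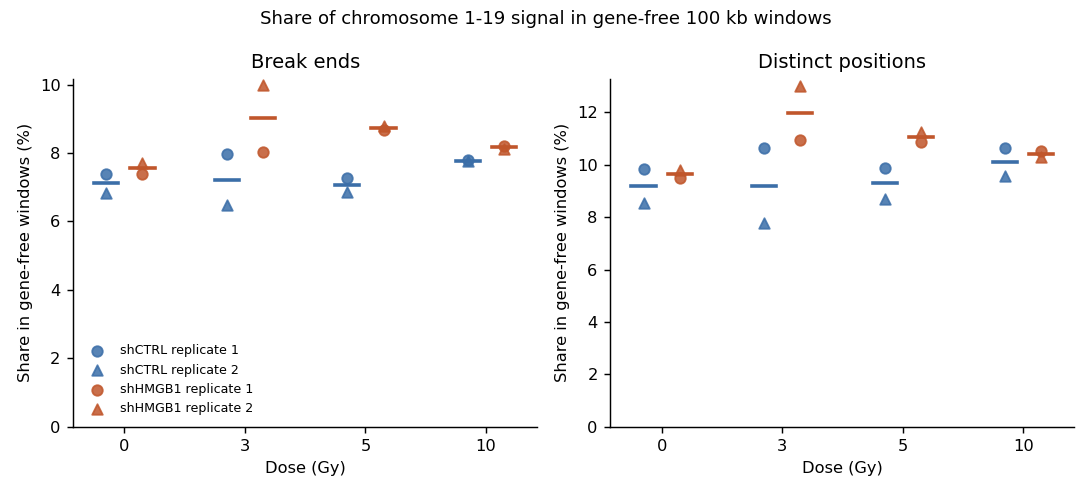
Share of a library's ends (left) and distinct positions (right) on chromosomes 1 to 19 that lay in gene-free windows, by dose in Gy. Points are libraries (blue shCTRL, orange shHMGB1; circles replicate 1, triangles replicate 2), bars are group means of 2, and in shares of ends both shHMGB1 points lie above both shCTRL points at each dose.

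No change of the share with irradiation passed the test. The 4 unirradiated libraries held 6.85% to 7.72% of ends in gene-free windows, with a median of 7.38%, and the 12 irradiated ones 6.49% to 9.99%, with a median of 7.998%. The difference of 0.665 points did not pass (exact permutation p = 0.0918, adjusted 0.147), nor did that in positions (0.924 points, adjusted exact permutation p = 0.182). In shCTRL the irradiated mean was 0.248 points above 0 Gy and in shHMGB1 1.08. The difference between those responses was 0.834 points and did not pass either (adjusted exact permutation p = 0.401).

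The mean share did not follow the order of the doses in either line. In shHMGB1 the mean share of ends was 7.56 ± 0.236% without irradiation, then 9.01 ± 1.38% after 3 Gy, 8.73 ± 0.0792% after 5 Gy and 8.17 ± 0.0766% after 10 Gy (SD, n = 2 each). In the same order shCTRL had 7.11 ± 0.374%, 7.23 ± 1.04%, 7.07 ± 0.304% and 7.78 ± 0.0115% (SD, n = 2 each). With 2 libraries a dose, no single dose can reach p under 0.333 in an exact test.

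Ends stacked slightly less in shHMGB1 and after irradiation. Gene-free windows held 1.33 ± 0.0439 ends per position over shCTRL libraries and 1.29 ± 0.0203 over shHMGB1 libraries (SD, n = 8 each), a difference of −0.0377 (adjusted exact permutation p = 0.0485). It was −0.0348 within replicate 1 and −0.0407 within replicate 2. Irradiated libraries held 1.30 ± 0.0348 and unirradiated ones 1.34 ± 0.0352 (SD, n = 12 and 4), a difference of −0.0412 (adjusted exact permutation p = 0.0485).

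Both differences in stacking lost their call at equal library size, at −0.0416 (adjusted exact permutation p = 0.177) and −0.0333 (0.328). Each also lost it with most single libraries left out, 14 and 15 of 16. Gene-holding windows held 1.58 to 1.89 ends per position, above the 1.25 to 1.37 of gene-free windows in every library.

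Window by window, no gene-free window passed the test as higher in shHMGB1 and 1 passed as lower, while the median over the tested windows was above 0. The fit covered 22638 windows with at least 160 ends, among them 3117 gene-free ones; the other 195 held fewer ends and were not tested. Between lines edgeR called 0 gene-free windows higher (percent called among all tested windows 0) and 1 lower (0.0309), at an adjusted p under 0.05. DESeq2 gave the same 0 and 1. At an unadjusted p under 0.05, 185 gene-free windows were higher (5.94%, against 3.69% of all) and 35 lower (1.12%, against 5.00% of all). With library totals in place of TMM factors 322 gene-free windows were higher and 16 lower, where 1640 and 594 of all 22638 were. The median of all windows then moved from 0.01 to 0.10 on the log2 scale.

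The median log2 difference of the gene-free windows was 0.11 between lines, where that of all windows was 0.01. Of the gene-free windows 64.6% were above 0, against 51.7% of all windows. Without shCTRL 3 Gy replicate 1 these medians were 0.25 and 0.09. By dose their median line difference was 0.00 without irradiation, 0.18 after 3 Gy, 0.15 after 5 Gy and 0.03 after 10 Gy. Irradiation gave 0 calls in either direction among gene-free windows (edgeR; 0 higher and 0.00883% lower among all), and DESeq2 gave 0 as well. At an unadjusted p under 0.05 there were 175 higher (5.61%, against 3.46% of all) and 47 lower (1.51%, against 4.37%), with a median of 0.10. The sign of this median turned without shCTRL 3 Gy replicate 1, to −0.03, where the median of all windows was −0.08. With every library the median of all windows was −0.01. Without shCTRL 0 Gy replicate 1 the median of gene-free windows was 0.18 and that of all windows 0.02. With library totals in place of TMM factors the counts at that unadjusted p were 245 higher and 24 lower (all windows 1141 and 588).

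The test of a different response in the lines called none (edgeR, 0 of all, and DESeq2 also 0). At an unadjusted p under 0.05, 126 gene-free windows were higher (4.04%, against 2.82% of all) and 46 lower (1.48%, against 2.31%). Without shCTRL 0 Gy replicate 1 the median of gene-free windows went from 0.12 to −0.04 and that of all windows from 0.00 to −0.04. Without shCTRL 3 Gy replicate 1 these medians were 0.38 and 0.12, so their size depended on single libraries. Since each library's 0 Gy controls and both lines enter several of these comparisons, their medians are given side by side only.

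One gene-free window was called, chr15:21600001-21700000, 10.467 kb from Cdh12, a neuronal cadherin gene, and 247.33 kb from the microRNA gene Gm44373. It held 964 ends at 433 positions. The shCTRL libraries held 74.3, 123 and 306 CPM (lowest, median and highest) and the shHMGB1 libraries 50.9, 68.2 and 79.7, so the ranges overlap. The means were 145 ± 76.0 and 65.8 ± 8.89 CPM (SD, n = 8 each). The window fell by 1.11 ± 0.19 (SE) on the log2 scale in shHMGB1 (edgeR adjusted p = 0.000169), with no call for irradiation (log2 −0.21, edgeR adjusted p = 0.845).

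The difference lay in a cluster of ends around position 21656483. Within 250 bases of it, in the order of dose and replicate, shCTRL libraries held 42, 71, 85, 37, 38, 45, 38 and 32 ends and shHMGB1 libraries 14, 30, 31, 38, 19, 25, 5 and 23. The smallest library, of shCTRL with 127549 ends, held 37 there and the largest, of shHMGB1 with 981944, held 5. This pair differs in line as well as in size. Within shCTRL the largest library, 3 Gy replicate 1 with 901617 ends, held 85. The 10 Gy libraries of shCTRL, with 835551 and 821491 ends, held 38 and 32. Within shHMGB1 the smallest library, with 673238 ends, held 14. As CPM this gave 114 ± 83.9 for shCTRL and 29.0 ± 13.8 for shHMGB1 (SD, n = 8 per line). The rest of the window held 30.9 ± 11.5 and 36.8 ± 7.85 CPM, and there the ranges of the lines overlap.

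The call held with each library left out (log2 −1.29 to −0.94, edgeR adjusted p at most 0.0112) and under DESeq2 (−1.14, adjusted p = 0.000130). It ended with every position counted as 1 end (log2 −0.18, edgeR adjusted p = 0.822), with a cap of 3 ends at a position (−0.46, 0.411) and at equal library size (−0.59, 0.363). Library size moved with this result, and its part was tested only by that thinning.

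**Figure D5:**
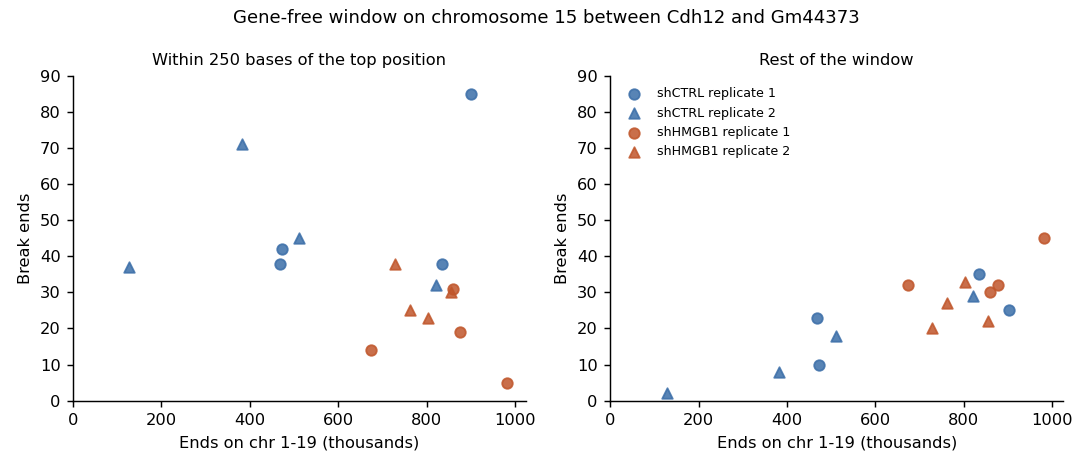
Ends of the called window on chromosome 15 within 250 bases of its top position (left) and in its remainder (right) against the ends of the library on chromosomes 1 to 19, in units of 1000. Each point is a library (blue shCTRL, orange shHMGB1, circles replicate 1, triangles replicate 2). The left cluster holds 37 ends in the smallest library, of shCTRL, and 5 in the largest, of shHMGB1, while the remainder goes from 2 to 45 ends.

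One more gene-free window came near the threshold for irradiation, chr12:30600001-30700000, 8.785 kb from Tmem18 and 184.321 kb from Alkal2. Its unirradiated libraries held 5 and 33 ends in shCTRL and 30 and 19 in shHMGB1, and the 12 irradiated ones 0 to 25. The means in CPM were 41.0 ± 33.5 and 15.9 ± 7.11 (SD, n = 4 and 12), with a log2 difference of −1.27 ± 0.29 (SE; edgeR adjusted p = 0.0786). It was chosen after its values were seen. The reason was that it passed with no filter on low counts (edgeR adjusted p = 0.0382) and in fits with a single library left out. Without shCTRL 0 Gy replicate 1, which held 5 ends, the log2 difference was −1.71, and shCTRL at 0 Gy rested on the library with 33. Without shCTRL 3 Gy replicate 1 it was −2.35, and the 1 library left in that group held 0 ends in the window.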

How the data were processed

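Break ends were measured by BLISS in 16 libraries. Each deposited file lists clusters of ends, the position of every molecule in them and its count. The authors deposited raw counts of molecules, without normalization, with duplicates removed by molecular identifier, as the files' names and the listed UMI-tools have it. Trimmomatic 0.32, BWA 0.7.5-r404, SAMtools, UMI-tools, bedtools and mm10 are named per the submitters' processing notes, with order and settings not given in the sources used here. The files carry no strand. Groups follow the labelled hairpin and dose. The labels call replicates biological without saying how they were grown, so p-values measure only how these libraries varied. The study's RNA-seq and ATAC-seq data were not used here.

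Ends were placed at their own positions and counted in 100 kb windows, with genes from GENCODE M21 (51229 genes on chromosomes 1 to 19). Shares, ends per position and the far over near ratio were tested by exact permutation, two-sided, with hairpins exchanged within doses (line) or doses within lines (irradiation), adjusted by Benjamini-Hochberg over 4 measures and 2 comparisons. Windows with at least 160 ends were tested with edgeR 4.0.16 (R 4.3.3, TMM, quasi-likelihood, 8 group means) and DESeq2 1.42.0. Other steps used Python 3.11.15 with scipy 1.17.1, numpy 2.4.6, matplotlib 3.10.9 and pandas 2.3.3. The edgeR fit of the line comparison was tested on simulated data, and DESeq2 was not. Library depth was 127549 to 981944 ends, and counting error is largest in the smallest library.

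Windows were named by rule: the 6 with the most ends, the 6 with the most positions, the 5 farthest from a gene, the 4 with the fewest positions, and those past a test. A limit on unknown bases for the 4, and the alternative built on it, could not be applied, since no genome sequence outside promoters was used here. The windows, lists and rules were chosen with earlier results of these data known. Alternatives were other scalings, filters, tests, window sizes and grids, each position counted once, at most 3 ends per position, thinning to 127549 ends, no dense regions, a margin of 10 kb to genes, a minimum of 100 ends, the replicate block and each library left out. Leaving out recurrent positions, the noncoding comparison set, the 5 Mb blocks and the runs of low windows were added after seeing the data.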

Additional observations from a re-analysis of the deposited data

Results flagged for a closer look

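In 4 of 40 groups of 8 libraries of 1 line, the highest library stood far from the other 7 for a named window, where chance flags about 1 in 20 groups. In the windows chr2:47700001-47800000, chr2:145000001-145100000 and chr15:67700001-67800000 this was shCTRL 3 Gy replicate 2, the smallest library, with 909.454, 1332.82 and 909.454 CPM. In chr1:145800001-145900000, one of the windows farthest from any gene, it was shHMGB1 5 Gy replicate 2, with 45.9 CPM from 35 ends.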

How the results depend on the processing

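Of 429 values recomputed under an alternative, 350 stayed the same. This meant the same direction and side of the threshold, or, for counts of called windows, equal or at most 1.5-fold apart. Every alternative run for the lower density of gene-free windows kept it. The rise of the share of ends in shHMGB1 lost its call (adjusted exact permutation p over 0.05) at 1.34 points with at most 3 ends per position and at 1.21 without recurring positions. That of the share of positions lost it at 1.33 with at most 3 ends per position, 1.19 thinned, 1.37 on the shifted grid, 2.06 in 50 kb windows, 1.14 at least 10 kb from genes and 1.22 without recurring positions. Ends per position lost the line call at −0.0263, −0.0416 (thinned), −0.0371 (10 kb) and −0.0301 (no recurring positions), and the irradiation call at −0.0111, −0.0333, −0.0469 (shifted), −0.0384 (50 kb), −0.0399 and −0.0120. Its difference in response between lines reversed from 0.0283 to −0.0110 when thinned. The causes were not tested. With single libraries left out, values ran from 0.826 to 1.32 points (share of ends, line), 0.969 to 1.69 (share of positions, line), −0.0468 to −0.0287 and −0.0470 to −0.0360 (ends per position, line and irradiation). The far over near difference between lines on the log2 scale ran from −0.00556 to 0.0306, turning only without shCTRL 3 Gy replicate 2. The shares and the far over near ratio with irradiation, and the differences in response between lines, kept their sign and stayed without a call.

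Gene-free windows called between lines numbered 0 with distinct positions, with at most 3 ends per position and thinned (where 27 gene-free windows could be tested). The count also depended on single libraries. Without shCTRL 0 Gy replicate 1 the log2 difference of chr1:113100001-113200000 was 2.46, against 0.80 with every library. Without shCTRL 3 Gy replicate 1 those of chr8:6100001-6200000 and chr19:26100001-26200000 were 2.54 and 2.51, against 0.94 and 0.80. In each case the 1 library left in that group held 0 ends in the window. With every library none of these windows passed (edgeR adjusted p 0.169 to 0.283). Irradiation called 1 gene-free window without a filter, and this count also depended on single libraries. A group left with 1 library was assumed to vary like the other groups.

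The labels do not say whether a replicate number marks shared cultures. Correlations of same-numbered deviations were low, but counting error also lowers them, so they cannot settle this. The main tests did not take the numbers as pairs. All 12 correlations within a line were above 0 (0.00736 to 0.0674), while the 16 between lines ran from −0.0859 to 0.0253. With the replicate block, the line differences of 1.07 points (ends), 1.33 points (positions) and −0.0377 (ends per position) had adjusted exact permutation p of 0.0625, 0.0938 and 0.0833, and the irradiation difference of −0.0412 had 0.0833. The first is an unadjusted 0.00781, the smallest that the 256 arrangements can give, adjusted over 8 tests. In edgeR the block left 1 gene-free window called between lines, with 16 of all windows lower against 7 without it, and 3 higher and 74 lower with a block within each line. DESeq2 gave 1 higher and 54 lower of all windows for the line. At an unadjusted p under 0.05 it gave 91 gene-free windows higher and 19 lower (line), 105 and 20 (irradiation) and 75 and 22 (response). Over all windows these counts were 414 and 821, 439 and 520, and 363 and 257. With each position counted once 13 of all windows were lower, with at most 3 ends per position 3, and with library totals 2. For irradiation, where 2 were lower, the numbers were 4 with no filter, 7 with the block within lines, and 0 with DESeq2, distinct positions or at most 3 ends per position. Depth limits single windows: the smallest library held 0 ends in 582 of 3312.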
